A study of Homo sapiens with 6 samples.

Results

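The genes described here act in plasminogen activation, the system that dissolves fibrin and cuts matrix at the cell surface, and in blood coagulation. They were chosen by symbol: PLAU, PLAUR, SERPINB2, SERPINA1, THBS1, F3, F13A1, TFPI and THBD, each matched to 1 Ensembl identifier, which makes 9 of the 60612 genes in the count table. RNA sequencing was done on U937, an established human myeloid line grown from a histiocytic lymphoma and labelled as acute myeloid leukemia of WT genotype. The B2 group was exposed for 36 h to 1 µM B2, a compound known here by that code alone, and the DMSO group to the vehicle for the same time, with 3 libraries in each group. All 6 libraries shared the line, growth in 10% fetal bovine serum and a serum-free RPMI-1640 medium during exposure. S100A9, a calcium-binding protein of myeloid cells, is named as the target in the title of the series. Replicates are not stated to be separate cultures, so each p reflects only how far these libraries differ, and that may be technical. Both groups carry replicate numbers 1, 2 and 3, and values are listed in that order.

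Plasminogen is turned into plasmin, a broad serine protease, by urokinase (PLAU), and the urokinase receptor (PLAUR) holds that enzyme on the surface of monocytes and other migrating cells. Serpins such as plasminogen activator inhibitor 2 (SERPINB2) block urokinase by a suicide mechanism in which the protease is trapped after cutting the inhibitor. Coagulation starts when tissue factor (F3) meets factor VIIa, it is limited by tissue factor pathway inhibitor (TFPI) and by thrombomodulin (THBD), and it ends with fibrin that factor XIII (F13A1) crosslinks. Monocytes and macrophages are known sources of urokinase, its receptor, SERPINB2, tissue factor and factor XIII A chains.

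Promoter sequence is shown for 4 of these genes because they span the results: PLAUR and SERPINA1 changed with the replicate number, SERPINB2 was abundant and did not pass that test, and F3 was scarce and followed another order. The windows are the 250 bases before the RefSeq start site in GRCh38.p14, read 5′ to 3′ on the gene's strand, and capitals mark the motif letters listed after them.
PLAUR, chr19:43670170-43670419, minus strand: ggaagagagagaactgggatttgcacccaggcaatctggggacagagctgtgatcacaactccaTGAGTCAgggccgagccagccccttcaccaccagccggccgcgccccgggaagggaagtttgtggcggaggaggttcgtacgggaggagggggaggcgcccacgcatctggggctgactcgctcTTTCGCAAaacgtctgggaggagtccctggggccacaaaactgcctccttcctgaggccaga
SERPINA1, chr14:94390636-94390885, minus strand: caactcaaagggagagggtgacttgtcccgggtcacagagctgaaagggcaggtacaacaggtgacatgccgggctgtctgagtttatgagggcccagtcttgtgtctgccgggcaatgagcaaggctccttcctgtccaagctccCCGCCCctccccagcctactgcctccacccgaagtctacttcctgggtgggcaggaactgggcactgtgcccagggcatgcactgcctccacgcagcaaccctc
SERPINB2, chr18:63887455-63887704, plus strand: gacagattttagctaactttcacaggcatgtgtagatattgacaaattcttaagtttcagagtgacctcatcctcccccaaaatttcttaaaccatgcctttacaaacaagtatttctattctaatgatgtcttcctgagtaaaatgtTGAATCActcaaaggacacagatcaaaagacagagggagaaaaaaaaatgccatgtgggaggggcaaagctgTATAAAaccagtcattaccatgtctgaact
F3, chr1:94541760-94542009, minus strand: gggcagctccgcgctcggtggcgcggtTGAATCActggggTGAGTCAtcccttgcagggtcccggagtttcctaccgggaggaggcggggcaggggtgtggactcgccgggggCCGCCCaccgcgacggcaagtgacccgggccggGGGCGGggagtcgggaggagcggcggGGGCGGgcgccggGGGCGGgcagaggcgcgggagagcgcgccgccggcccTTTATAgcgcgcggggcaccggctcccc
In GENCODE 29, 5 of 16 PLAUR transcripts, 10 of 20 SERPINA1 transcripts, 2 of 6 SERPINB2 transcripts and 2 of 4 F3 transcripts start within 50 bases of these start sites. SERPINA1 has another entry, starting at 94388602 on chromosome 14, and the gene-level counts do not separate its start sites.

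Of the 9 genes, 8 had an entry in the promoter table, with 10 entries in all, and THBD had none. Each window was searched on both strands, and in the 4 windows shown no match overlapped another. The AP-1 letters TGANTCA matched in 3 of the 10 entries, those of PLAUR (TGAGTCA, 186 to 180 bases before the start), SERPINB2 (TGAATCA, 102 to 96) and F3 (223 to 217 and 210 to 204), against 6.57% of 35116 promoters. TATAAA matched in 2 entries, SERPINB2 at 30 to 25 bases and F3, on the opposite strand (TTTATA as printed), at 28 to 23 bases before the start, against 10.7% of all. The C/EBP letters TTGCNNAA matched in PLAUR (62 to 55, on the opposite strand) and in the second PLAU entry, against 9.05%. The Sp1 letters GGGCGG matched in 4 entries, SERPINA1 (104 to 99, on the opposite strand) and F3 among them, against 42.6%. The PU.1 letters GAGGAAG matched once, in PLAU, against 11.2%, the STAT letters TTCNNNGAA once, in THBS1, against 6.57%, and the NF-kB motif in none, against 0.527%.

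Library totals ran from 61150740 to 78431054 counts, so that 1 count was worth 0.0129 to 0.0179 CPM (counts scaled by the library total). CPM values are scaled with trimmed-mean (TMM) factors. Myeloid identity was present in every library: the transcription factor SPI1 read 198.3 to 425.9 CPM and the surface antigen CD33 86.0 to 114.9 CPM. The 12 myeloid markers all passed the filter on low counts, and their summed level was 4349 and 4199.9 CPM in the B2 and DMSO libraries numbered 3, against 1544 to 1748 CPM in the other 4 libraries. CD14 and CD68, monocyte and macrophage markers, were part of that difference, with CD14 at 120.7 and 109.6 CPM in number 3 (B2, DMSO) against 0.361 to 1.29 CPM elsewhere. LYZ was a larger part, at 1801.1 and 1471.9 CPM in number 3 (B2, DMSO) against 381.5 to 968.4 CPM elsewhere. MPO went the other way, at 0.281 and 0.567 CPM in number 3 (B2, DMSO) against 0.992 to 1.67 CPM elsewhere. CD33 hardly differed (log2 difference of number 3 over numbers 1 and 2 -0.05). Of 8 hepatocyte markers, which summed to 0.657 to 1.67 CPM, 7 stayed under 1 CPM in every library, and of 8 endothelial markers 6 did. The endothelial sum was 2.56 and 3.49 CPM in number 3 (B2, DMSO) and 5.14 to 7.71 CPM elsewhere. That sum was mostly ERG and ESAM. VWF went the other way, at 0.693 and 0.606 CPM in number 3 (B2, DMSO) against 0.0548 to 0.376 CPM elsewhere. Of 8 platelet and megakaryocyte markers 5 stayed under 1 CPM, PF4 and GP9 at 0 among them, while PPBP read 16.2 and 12.3 CPM in number 3 (B2, DMSO) and 0.151 to 0.434 CPM elsewhere. Among 7 T and NK markers the CD3 chains and TRBC1 were at 0, and the summed level of 169.8 to 379.5 CPM was nearly all NKG7. The 4 B cell markers summed to 19.2 to 26.2 CPM and the 6 fibroblast markers to 1.74 to 4.44 CPM. The 6 epithelial markers summed to 28.1, 28 and 34.5 CPM in B2 libraries 1 to 3, against 2.88, 10.3 and 24.7 CPM in DMSO libraries 1 to 3. The part of these cell markers in the results that follow was not tested. Fewer cells of a type and less RNA per cell cannot be told apart in such bulk libraries.

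Between B2 and DMSO none of these genes passed the test, and replicate number separated the libraries for 2 of them. The filter on low counts kept 7 of the 9 genes. F13A1 and TFPI did not reach it. In edgeR's quasi-likelihood test of B2 over DMSO, adjusted over all 17224 genes tested, 0 of the 7 had an adjusted p below 0.05, and the share over all genes was 0%. Before adjustment 85 genes had a p below 0.05, 0 of the 7 among them, and limma-voom called 0 genes while DESeq2 called 3, none of them in this group. The ranges of B2 and DMSO overlapped for each of the 7, and 3.56% of all genes tested had B2 and DMSO ranges apart. In a fit with treatment and replicate number, the test of the number called PLAUR and SERPINA1, 2 of 7, against 2.68% of all genes. In that fit the contrast of number 3 with the mean of numbers 1 and 2, chosen with earlier results of these data known, called the same 2 against 3.34% of all genes, both higher in number 3, where 2.91% of all genes were called higher and 0.43% lower. The 2 genes were also called for number 3 over number 1 (1.99% of all genes) and for number 3 over number 2 (3.19%), and 0 of the 7 for number 2 over number 1 (0.0523%). Both number 3 libraries lay above the other 4 for 5 of the 7 genes tested, while 12.3% of all genes tested did the same. TFPI did so too, which makes 6 of the 9. It lay below the filter, outside that share, with 10 and 9 counts in number 3 (B2, DMSO) against 0 to 6 elsewhere.

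**Figure D1:**
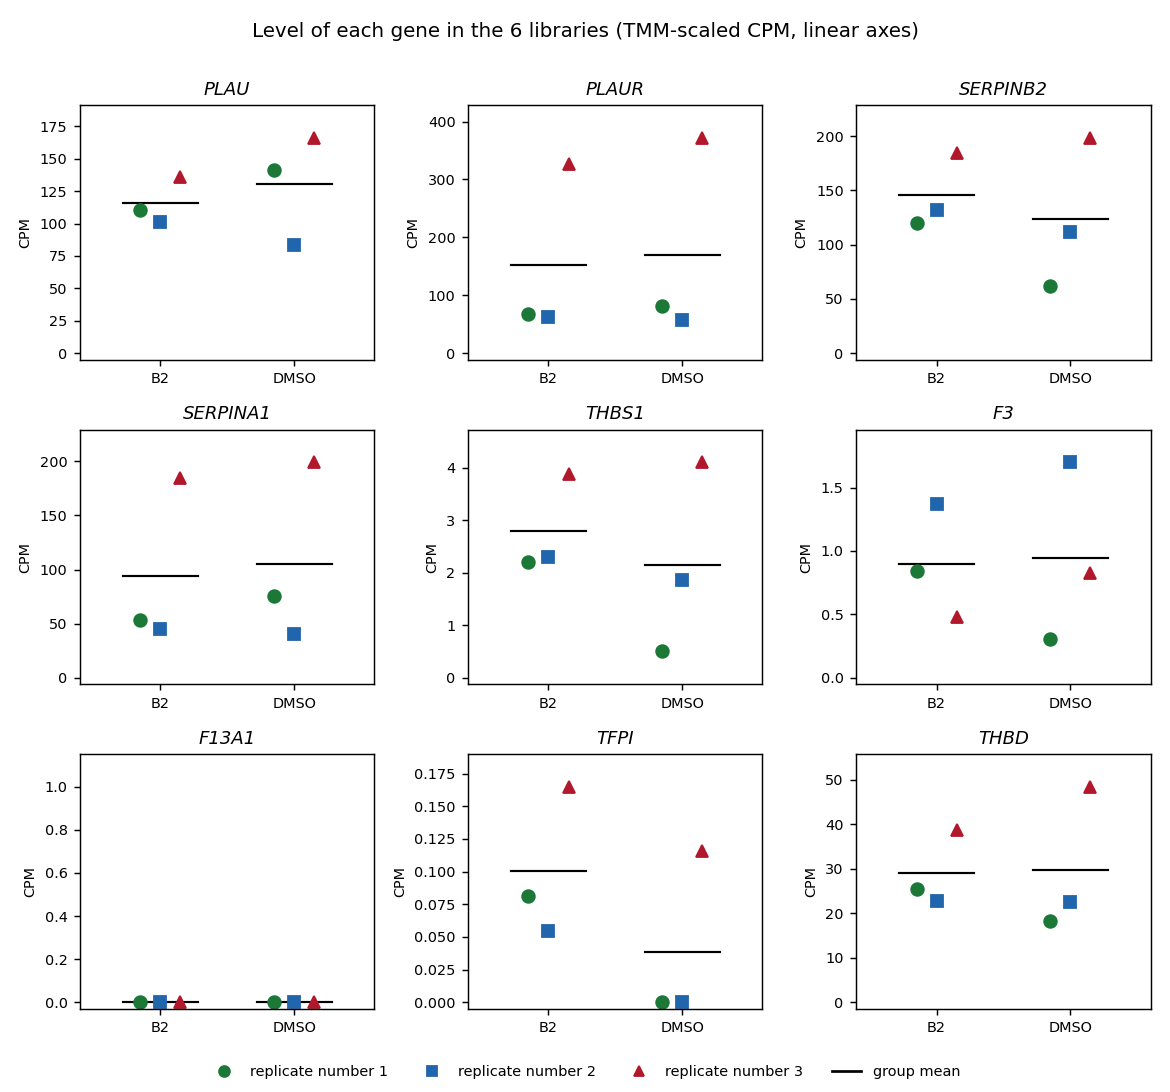
TMM-scaled CPM of each gene in the B2 libraries (left of each panel) and the DMSO libraries (right), on linear axes that differ between panels, with replicate numbers as symbols and the group mean as a line. In number 3 PLAUR reads 325.9 CPM (B2) and 371.9 CPM (DMSO), with at most 82.3 CPM elsewhere, while F13A1 stays at 0.

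PLAU, which encodes the urokinase protease (chromosome 10, 73909177 to 73917497, plus strand, GRCh38), read 110.3, 100.8 and 135.7 CPM in B2 libraries 1 to 3, against 141.2, 83.4 and 166.1 CPM in DMSO libraries 1 to 3. The groups overlapped, with number 3 at the top of each group and DMSO replicate 2 lowest. The log2 fold change of B2 over DMSO was -0.17, its SE 0.31 and its 95% interval -0.89 to 0.54 (edgeR adjusted p = 1). Number 3 over numbers 1 and 2 gave 0.48 with an SE of 0.26 (edgeR adjusted p = 0.438), and DMSO replicate 1 lay above B2 replicate 3. PLAU was thus the abundant gene with the narrowest range, 1.99-fold between its lowest and highest library. Exons of C10orf55, on the other strand, overlap 31.05% of its exon length. C10orf55 held 25 to 89 counts where PLAU held 6475 to 12895, and the strand setting of the counting is not given in the sources used here.

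PLAUR, the urokinase receptor (chromosome 19, 43646095 to 43670547, minus strand), rose in number 3. It read 68.5, 62.7 and 325.9 CPM in B2 libraries 1 to 3, against 82.3, 56.5 and 371.9 CPM in DMSO libraries 1 to 3. Both libraries numbered 3 stood far above the other 4, which lay close together in both groups. The log2 difference between number 3 and the mean of numbers 1 and 2 was 2.38 with an SE of 0.24, a 5.20-fold level (edgeR adjusted p = 9.69e-05). Number 3 exceeded number 1 by 2.21 (SE 0.30, edgeR adjusted p = 0.00197) and number 2 by 2.54 (SE 0.31, edgeR adjusted p = 6.57e-04), and numbers 2 and 1 differed by -0.33 (SE 0.29, edgeR adjusted p = 0.514). Against that spread B2 over DMSO was -0.16 (SE 0.84, interval -2.09 to 1.77). With the replicate number as a block it was -0.10 (SE 0.24, interval -0.62 to 0.42). Without the block the estimate depended on single libraries, at -1.38 without B2 replicate 3 and 1.13 without DMSO replicate 3.

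SERPINB2, the inhibitor of urokinase (chromosome 18, 63871692 to 63903890, plus strand), read 120.3, 131.9 and 184.6 CPM in B2 libraries 1 to 3, against 62.1, 111.2 and 198.4 CPM in DMSO libraries 1 to 3. Both number 3 libraries were highest, and DMSO replicate 1 was lowest. B2 over DMSO gave 0.23 with an SE of 0.42 (interval -0.73 to 1.2, edgeR adjusted p = 1), and -0.08 without DMSO replicate 1. Number 3 over numbers 1 and 2 gave 0.91 with an SE of 0.28 (edgeR adjusted p = 0.121), which did not pass. The adjusted p for that contrast was 0.0277 with DESeq2, 0.0267 with counts divided by 4 and 0.0122 without B2 replicate 1. SERPINB2 shares 19.91% of its exon length with SERPINB10 on the same strand, so reads may be exchanged between them. SERPINB10 held 144 to 529 counts where SERPINB2 held 3465 to 15398.

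SERPINA1 encodes alpha-1-antitrypsin, the main plasma inhibitor of neutrophil elastase, made by hepatocytes and also by monocytes and macrophages (chromosome 14, 94376747 to 94390693, minus strand). It too rose in number 3, with 53.2, 44.9 and 184.6 CPM in B2 libraries 1 to 3, against 75.1, 40.0 and 199.2 CPM in DMSO libraries 1 to 3. The order of the libraries was that of PLAUR in every place. The log2 difference of number 3 over numbers 1 and 2 was 1.88 with an SE of 0.25, a 3.68-fold level (edgeR adjusted p = 9.30e-04). It kept its size but not its call when 1 number 3 library was left out, at 1.85 without B2 replicate 3 (edgeR adjusted p = 0.0773) and 1.91 without DMSO replicate 3 (edgeR adjusted p = 0.0695). Number 3 over number 1 was 1.59 (SE 0.31, edgeR adjusted p = 0.021) and over number 2 it was 2.17 (SE 0.32, edgeR adjusted p = 0.00245). B2 over DMSO stood at -0.15 with an SE of 0.69, and its interval ran from -1.74 to 1.44. It was -1.10 without B2 replicate 3 and 0.71 without DMSO replicate 3, and with the replicate block it was -0.15 with an SE of 0.25.

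THBS1, the matrix glycoprotein thrombospondin 1, known for activating latent TGF-beta and for binding CD36 and CD47 (chromosome 15, 39581079 to 39599466, plus strand), was scarce. It read 2.20, 2.29 and 3.88 CPM in B2 libraries 1 to 3, against 0.502, 1.85 and 4.10 CPM in DMSO libraries 1 to 3. Number 3 was highest in both groups, and DMSO replicate 1, with 28 counts against 144 to 318 in the other libraries, stood apart. B2 over DMSO was 0.37 with an SE of 0.67 (interval -1.16 to 1.90, edgeR adjusted p = 1), and -0.08 without DMSO replicate 1. Number 3 over numbers 1 and 2 was 1.39 with an SE of 0.43 (edgeR adjusted p = 0.130), and number 3 over number 2 alone 0.99 with an SE of 0.51. Single libraries moved the first value, to 0.73 without DMSO replicate 3, 0.99 without DMSO replicate 1 and 1.99 without B2 replicate 3. THBS1 has 9.158 kb of exons, and among the genes tested with 6.74 kb of exons or more the median log2 difference between a library and the mean of the other 5 was -0.54 for DMSO replicate 1 and 0.44 for DMSO replicate 2. On that scale THBS1 itself lay at -2.37 in DMSO replicate 1 and -0.18 in DMSO replicate 2. The part of this length trend in the THBS1 values was not tested.

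Among the coagulation genes proper, tissue factor was scarce but passed the filter on low counts. F3 (chromosome 1, 94529225 to 94541800, minus strand) read 0.840, 1.37 and 0.479 CPM in B2 libraries 1 to 3, against 0.305, 1.70 and 0.825 CPM in DMSO libraries 1 to 3, from 17 to 132 counts. Number 2 was highest in both groups, and the lowest library was number 3 in B2 and number 1 in DMSO. B2 over DMSO gave -0.08 with an SE of 0.67 (interval -1.62 to 1.47), and the sign turned with the replicate block (0.08) and without DMSO replicate 2 (0.63). Its contrast of number 3 with numbers 1 and 2 was -0.51 with an SE of 0.57 (edgeR adjusted p = 0.755). F13A1, the catalytic chain of factor XIII, had 0 counts in all 6 libraries. At the floor of 3 counts this allows up to 0.0386 to 0.0537 CPM, a limit for counting error only, and nothing can be said of a difference below it.

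The inhibitors of coagulation were unequal in level. TFPI, which blocks factor Xa and the complex of tissue factor with factor VIIa, had 6, 4 and 10 counts in B2 libraries 1 to 3, against 0, 0 and 9 counts in DMSO libraries 1 to 3. That corresponds to 0.0813, 0.0548 and 0.165 CPM for B2 and to 0, 0 and 0.116 CPM for DMSO, where a count of 0 allows up to 0.0537 CPM in DMSO replicate 1 and 0.0386 CPM in DMSO replicate 2. Without the filter on low counts, edgeR gave B2 over DMSO an interval from -2.52 to 5.13 on the log2 scale (adjusted p = 1). The value 4 is also overrepresented in the table, so counts this small are not exact. THBD, the thrombin receptor through which protein C is activated (chromosome 20, 23045633 to 23049741, minus strand, 1 exon), read 25.4, 22.8 and 38.6 CPM in B2 libraries 1 to 3, against 18.2, 22.4 and 48.4 CPM in DMSO libraries 1 to 3. Number 3 was highest in both groups, and the other 4 libraries lay within 18.2 to 25.4 CPM. B2 over DMSO was -0.04 with an SE of 0.42 (interval -1.01 to 0.93), a value whose sign turned under several settings. Number 3 over numbers 1 and 2 gave 0.98 with an SE of 0.29 (edgeR adjusted p = 0.107), and DESeq2 gave that contrast an adjusted p of 0.0142.

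**Figure D2:**
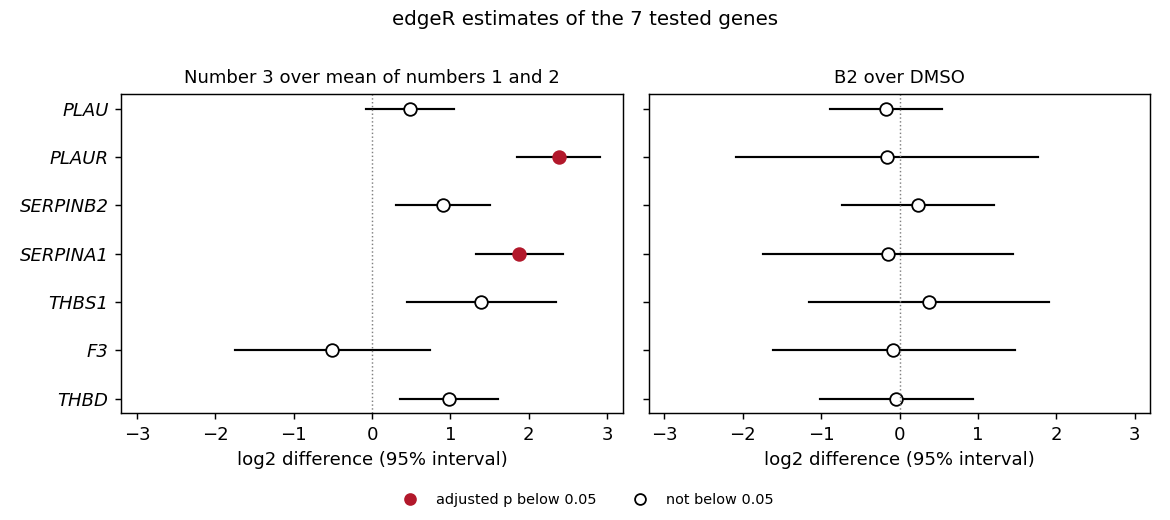
edgeR log2 differences with 95% intervals for the 7 genes tested, number 3 over the mean of numbers 1 and 2 on the left and B2 over DMSO on the right, with filled points where the adjusted p was below 0.05. Only PLAUR at 2.38 and SERPINA1 at 1.88 are filled, and every B2 interval includes 0.

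Within replicate numbers, none of the 7 genes tested had B2 over DMSO in 1 direction in all 3 pairs. The share of all genes with 1 direction in all 3 pairs was not computed, so this count describes the values only. TFPI, below the filter, had more counts with B2 in each pair, with 0 counts in DMSO replicates 1 and 2. In pair 1 the log2 ratio was 2.13 for THBS1, 1.46 for F3, 0.95 for SERPINB2 and 0.48 for THBD, and -0.36 for PLAU, -0.26 for PLAUR and -0.50 for SERPINA1. Pair 3 had negative ratios for all 7 tested genes, from -0.78 for F3 to -0.08 for THBS1. In pair 2, 6 of the 7 were positive, from 0.02 for THBD to 0.30 for THBS1, and F3 was at -0.31. Each pair compares 1 library with 1 library, and the shares of all genes with these signs were not computed. A shift of a whole library and a trait of these genes therefore cannot be told apart here. The wide ratios of pair 1 thus fell on the genes that were lowest in DMSO replicate 1. With the replicate number as a block, B2 over DMSO was 0.72 for THBS1 (SE 0.43), 0.36 for SERPINB2 (SE 0.27), 0.08 for F3 (SE 0.53), 0.06 for THBD (SE 0.28) and -0.13 for PLAU (SE 0.25), and 0 of the 7 passed, with an adjusted p of 1 for each.

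**Figure D3:**
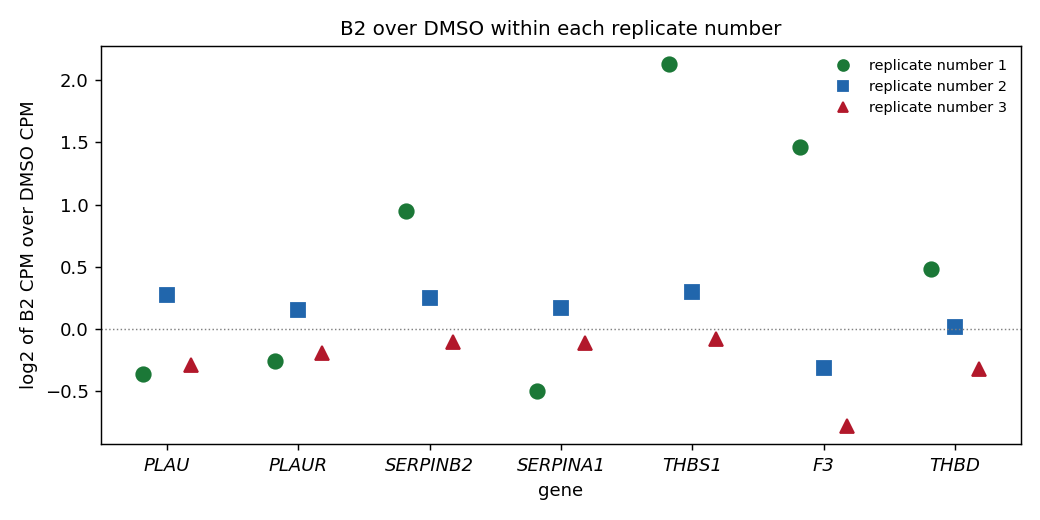
Log2 ratio of B2 CPM over DMSO CPM within each replicate number for the 7 genes tested, with 1 point per pair and a dotted line at 0. Pair 1 spans -0.50 for SERPINA1 to 2.13 for THBS1, while pair 3 lies below 0 for every gene shown. The share of all genes below 0 in pair 3 was not computed.

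Levels between genes were compared per kilobase of exon, using the merged exons of GENCODE 29. Merged exons join all annotated transcripts of a gene. These were 16 for PLAUR (4.457 kb), 20 for SERPINA1 (4.902 kb), 5 for PLAU (2.95 kb) and 6 for SERPINB2 (2.748 kb). Gene-level counts do not show which transcripts were present. Where those were shorter than the merged exons, the level is understated, and the order between genes may differ. By the mean over 6 libraries the order was SERPINB2 at 49.0, PLAU at 41.7, PLAUR at 36.2, SERPINA1 at 20.3, THBD at 7.13, F3 at 0.320 and THBS1 at 0.270 CPM per kb, with TFPI at 0.00593 and F13A1 at 0. The first 3 did not separate beyond their spread, which was 22.6 to 72.2 for SERPINB2, 28.3 to 56.3 for PLAU and 12.7 to 83.4 CPM per kb for PLAUR. SERPINA1 overlapped them as well, at 8.17 to 40.6 CPM per kb, and THBD overlapped SERPINA1 alone, at 4.42 to 11.8, while F3 and THBS1 overlapped only each other. On these merged lengths the order turned with the replicate number. In the libraries numbered 3 PLAUR was first, at 73.1 CPM per kb in B2 and 83.4 in DMSO, with SERPINB2 next at 67.2 and 72.2. In the other 4 libraries PLAUR stood at 12.7 to 18.5 CPM per kb, below PLAU and SERPINB2 in each of them.

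**Figure D4:**
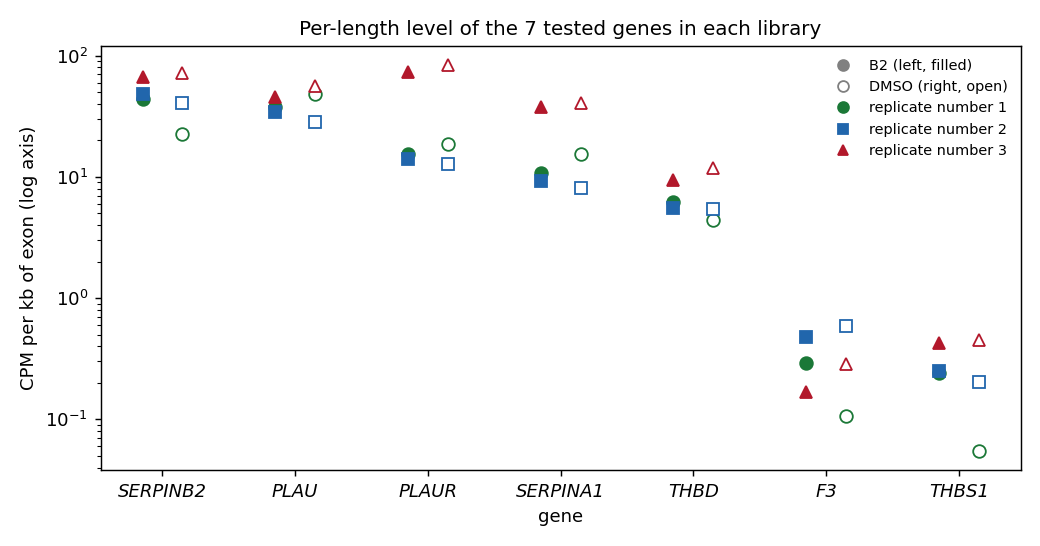
CPM per kilobase of merged exon length on a log axis for the 7 genes tested, ordered by their mean, with B2 libraries filled on the left and DMSO libraries open on the right of each gene. PLAUR, SERPINA1, SERPINB2, THBD and THBS1 have their number 3 libraries above the other 4, and F3 and THBS1 stay under 0.6 CPM per kb.

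The other genes of these pathways were counted from 6 lists. None of the 45 tested genes outside the named 9 passed for B2 over DMSO. For replicate number 6 of the 45 passed, against 2.68% of all genes, and all 6 were higher in number 3, where 2.91% of all genes were called higher and 0.43% lower. The counts by list read against the same shares, and lists share some genes. Counts and medians by list include those of the named 9 that were tested. These were 4 in the fibrinolysis list, 2 in the serpin list and 1 each in the procoagulant, anticoagulant and thrombospondin lists. The list values are therefore not separate from the results of the 9. In the fibrinolysis list 5 of 18 tested genes were called higher in number 3 and 0 lower, PLAUR among them, with a median log2 difference of 0.46 against -0.05 for all genes. A2M, LRP1 and SERPINI1 were others. A2M, the broad protease trap alpha-2-macroglobulin, read 40.8 and 47.7 CPM in number 3 (B2, DMSO) against 0.386 to 2.83 CPM elsewhere (log2 difference 5.68, edgeR adjusted p = 4.23e-06). LRP1, the endocytic receptor that clears protease and inhibitor complexes, read 12.2 and 14.0 CPM in number 3 (B2, DMSO) against 1.6 to 2.17 CPM. Neuroserpin (SERPINI1), an inhibitor of tissue plasminogen activator, read 2.34 and 3.97 CPM there against 0.465 to 0.860 CPM.

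Procoagulant and anticoagulant genes gave no calls. In the procoagulant list 0 of 12 tested genes passed for replicate number, beside 2.68% of all genes. For B2 over DMSO 0 passed, beside 0% of all genes, and 6 of its 22 genes had 0 counts in every library. Its smallest p for B2 was that of F10, which encodes factor X, at 0.122, 0.301 and 0.182 CPM in B2 libraries 1 to 3, against 0.717, 0.374 and 0.387 CPM in DMSO libraries 1 to 3 (log2 fold change -1.27, edgeR adjusted p = 1). In the anticoagulant list 0 of 8 passed in either comparison. Lists of 12 and 8 tested genes are too short to tell 0 calls from the shares over all genes. PROS1, the protein S cofactor, read 8.77, 10.7 and 15.3 CPM in B2 libraries 1 to 3, against 9.76, 22.6 and 16.4 CPM in DMSO libraries 1 to 3. Of the protease-activated receptors 2 of 4 were tested and 0 passed, with F2RL3 at 4.26 to 6.29 CPM over the 6 libraries. Among serpins 3 of 13 were called higher in number 3 (SERPINA1 and SERPINI1 among them) and 0 lower. SERPINB10, the neighbour that shares exon sequence with SERPINB2, read 1.95, 2.38 and 2.81 CPM in B2 libraries 1 to 3, against 4.07, 6.81 and 4.02 CPM in DMSO libraries 1 to 3 without overlap, and did not pass (log2 fold change -1.06, SE 0.36, edgeR adjusted p = 1). Among thrombospondins and their partners 2 of 6 were called higher in number 3. These were CD36, a thrombospondin receptor, at 106.8 and 176.4 CPM in number 3 (B2, DMSO) against 9.80 to 16.1 CPM, and the transglutaminase TGM2 at 15.2 and 18.8 CPM against 2.63 to 3.46 CPM. KLKB1, plasma prekallikrein, and THBS4 had the smallest p for B2 in their lists, with log2 fold changes of -0.78 and 0.29 that did not pass. Median log2 differences for number 3, with the tested genes of the named 9 included, were -0.06 in the procoagulant and 0.12 in the anticoagulant list. They were -0.45 in the receptor, 0.18 in the serpin and 0.87 in the thrombospondin list. The last is the midpoint of THBS1 (1.39), which is among the named 9, and THBS3 (0.35). For B2 over DMSO the list medians ran from -0.20 (procoagulant) to 0.13 (serpins), beside -0.08 for all genes. Some of these genes share exon sequence with a neighbour, A2M with A2M-AS1 on the other strand (8.79%), SERPINB10 with SERPINB2 (20.3%) and KLKB1 with CYP4V2 on the same strand (6.81%).

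The genes nearest in pattern were found by the root mean square difference of centred log2 CPM over the 6 libraries, a description with no test. Nearest to SERPINA1 were CTSH (0.033) and PSAP (0.035), which encode the lysosomal protease cathepsin H and the lysosomal precursor prosaposin, where the median over all genes was 1.07. PSAP read 3430 and 3831 CPM in number 3 (B2, DMSO) against 723.4 to 1419 CPM elsewhere. PLAUR was nearest to OLIG1 (0.121) and TGM2 (0.127) against a median of 1.24. PLAU had EXOC7 (0.032) and GADD45B (0.036) nearest, against a median of 0.58, and THBD had HAVCR2 (0.038) and CCDC9B (0.044), against 0.66. For SERPINB2 the nearest were GARRE1 (0.077) and SSH1 (0.105), for THBS1 RNF213 (0.162) and TRANK1 (0.196), and for F3 KDM7A (0.105) and the unnamed ENSG00000279597 (0.144). RNF213 shared with THBS1 a low value in DMSO replicate 1, at 73.5 CPM against 215.2 to 409.1 CPM in the other libraries. Among the 7 genes themselves SERPINB2 and THBD were closest to each other (0.24), then PLAUR and SERPINA1 (0.26), and PLAUR and F3 were farthest apart (1.63).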

How the data were processed

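RNA was measured by sequencing in 6 libraries (3 B2, 3 DMSO). For 60612 Ensembl genes the authors deposited expected counts in 1 table, estimated per gene and not normalized. The submitters' processing notes name HISAT2 2.0.4. How reads were counted, on which build and annotation and with which strand setting, is not given in the sources used here. All deposited counts were whole. The value 4 was overrepresented (6465 times, with 3144 for 3 and 2022 for 5), and 1 alternative divided all counts by 4.

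Symbols came from a gene name table (60401 identifiers), positions and exon lengths from GENCODE 29 (GRCh38), and promoter sequences from RefSeq (GRCh38.p14). Genes were kept by filterByExpr (minimum count 10, minimum total 15), which left 17224. Tests used edgeR 4.0.16 under R 4.3.3 (glmQLFit, glmQLFTest, TMM factors) with Benjamini-Hochberg adjustment over all genes kept and a threshold of 0.05, first with treatment alone and then with treatment and replicate number. SE values come from the coefficient and its F statistic. Same-numbered libraries deviated together from their group means (Pearson r across genes 0.21, 0.40 and 0.50 for numbers 1, 2 and 3, each above 0.1, with 6 of 6 libraries matching their own number best). This pairing rests on the data and not on the labels, and the 3 values are not independent, since deviations within each group add up to 0. Tests were tried on simulated counts, where 50 genes were altered at each size. For B2 over DMSO, the fit with treatment alone found 0 when the factor was 2, 3 when it was 4 and 28 when it was 8. Adding the replicate block raised these to 14, 31 and 46. The contrast of number 3 with numbers 1 and 2 found 7, 38 and 39. A lack of B2 calls without the block therefore says little about differences by a factor of 4 or less. Alternatives were RLE factors, library totals, no filter, DESeq2 1.42.0, limma-voom (limma 3.58.1), counts divided by 4, the replicate block, no treatment term, number 3 left out and each library left out. The 9 genes, the lists and the contrasts were chosen with earlier results of these data known. Besides the 9, the text names per list up to 4 genes called for replicate number and the gene with the smallest p for B2, and the 2 genes nearest in pattern to each of the 7 kept. Of these genes, 1 is not reported here.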

Additional observations from a re-analysis of the deposited data

How the results depend on the processing

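The count of the 9 genes called for B2 over DMSO was 0 in all 14 other settings, the replicate block included. The block changed no call. For replicate number and for number 3 over numbers 1 and 2, the 2 calls became 5 with counts divided by 4 and 4 with DESeq2, and 1 to 5 without 1 library (5 without B2 replicate 1, 1 without B2 replicate 3 or DMSO replicate 3). The cause was not tested. PLAUR stayed called throughout, between 2.29 and 2.51. For number 3 over numbers 1 and 2, SERPINB2, THBS1 and THBD each passed under 3 of 13 settings. THBS1 passed there with RLE factors (adjusted p = 0.0453, and 0.0711 in the number test), counts divided by 4 and B2 replicate 1 left out. Signs of B2 over DMSO turned for F3 with limma-voom (0.05), the replicate block (0.08) and number 3 left out (0.13), and for THBD with library totals (0.02), limma-voom (0.04), the block (0.06) and number 3 left out (0.25). Without 1 library, the B2 value ran from -0.48 to 0.63 for F3, -0.43 to 0.04 for PLAU, -1.38 to 1.13 for PLAUR, -1.10 to 0.71 for SERPINA1, -0.08 to 0.75 for SERPINB2, -0.30 to 0.51 for THBD and -0.08 to 1.23 for THBS1, and the number contrast of F3 ran from -1.21 to 0.10. Without 1 library the number fit rests on 1 residual degree of freedom per gene before moderation. Over all genes, the 575 calls of number 3 over numbers 1 and 2 became 1031 with DESeq2 and 1030 with counts divided by 4, and 288 to 958 without 1 library. The 461 calls of the number test became 266 with library totals, 956 with RLE factors, 1278 with limma-voom, 1671 with DESeq2, 2379 with counts divided by 4 and 388 to 4124 without 1 library. TFPI and F13A1 lay below the filter on low counts, and F3 held 17 to 132 counts. The part of depth in their results was not tested.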

Other observations

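SERPINE2, protease nexin 1, an inhibitor of urokinase and thrombin, was picked here after its values were seen. It read 28.5, 25.9 and 10.9 CPM in B2 libraries 1 to 3, against 19.7, 28.9 and 10.8 CPM in DMSO libraries 1 to 3. Both number 3 libraries were lowest, where SERPINA1 was highest, and 12.1% of all genes tested also had both number 3 libraries lowest. The contrast of number 3 with numbers 1 and 2 did not pass (log2 difference -1.24, SE 0.31, edgeR adjusted p = 0.053). Nor did the edgeR test of replicate number (adjusted p = 0.1).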
